A study of Mus musculus with 12 samples.

Results

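The 46 genes described here encode the signalling chain of transforming growth factor beta (TGF-beta), the activins and the bone morphogenetic proteins (BMPs), from secreted ligands to target genes. They are a list of gene symbols drawn up with earlier results of these data known, and no threshold on a measured value was part of the choice. All 46 were found among the 54232 genes listed for each library, had at least 15 counts over the 12 libraries, and passed the filter on low counts that left 18618 genes for testing. They comprised 10 ligands, 4 latent TGF-beta binding proteins, 6 extracellular antagonists and binding proteins, 11 receptors and co-receptors, 6 receptor-regulated and common SMADs, 4 inhibitory SMADs and corepressors, and 5 target genes.

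RNA was sequenced from dorsal wounds of male C57BLKS/J mice with the genotype Lepr (db/db). These mice lack the signalling form of the leptin receptor and become obese and diabetic, and every group carried this mutation. The mice were wounded at 12 weeks of age with a full-thickness punch of 6 mm, and tissue was taken on day 10, when the labels give their age as 12.5 weeks. A group called TD was covered with Tegaderm film only (5 libraries), a group called Strain had patches that strained the wound by roughly 30% (4 libraries), and a group called No Strain had patches that did not (3 libraries). The design thus addresses what a patch does to a wound and what strain adds to it. The labels do not say whether wounds came from separate mice, so p-values measure the spread between these libraries only.

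As background, the ligands of this family are secreted dimers that bring together type I and type II receptor kinases, and the type I receptor phosphorylates SMAD proteins. TGF-beta and activin signal mainly through SMAD2 and SMAD3, BMPs through SMAD1, SMAD5 and SMAD9, and both branches share SMAD4. TGF-beta is secreted in a latent form held in the matrix, and in wounds it is known for driving fibroblasts to lay down collagen and for slowing keratinocyte growth, while BMP signals are known in skin for their part in hair follicle cycling and differentiation.

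Libraries held 20354677 to 25059371 counts, so a member's values rested on similar depths in every group. Levels are given as CPM, counts divided by the scaled library total and set to a common depth. All keratinocyte and fibroblast markers were present in every library of these skin wounds, and no marker of the 9 cell types examined was at 0 in all libraries. Summed over 12 genes, skeletal muscle markers reached 6971 to 17350.0 CPM in TD, 3312 to 6313 CPM in Strain and 4868 to 10476 CPM in No Strain. Adipocyte markers summed to 1100.4 to 2550.5, 761 to 1155 and 539 to 826 CPM, and endothelial markers to 368 to 477, 480.4 to 701 and 551 to 629 CPM in the same order. Neutrophil markers summed to 531 to 1723, 1001 to 8799 and 2265 to 5309 CPM, with Ngp at 0 in some libraries. By edgeR's quasi-likelihood test with Benjamini-Hochberg adjustment, 8 of 12 muscle, 6 of 8 adipocyte, 9 of 10 neutrophil and 4 of 6 endothelial markers changed between Strain and TD. The corresponding counts for No Strain against TD were 2, 8, 7 and 4. Muscle and adipocyte markers that passed were lower under a patch, and neutrophil and endothelial markers that passed were higher. The other lists had few or no changed markers in both comparisons: 0 of 7 for fibroblasts, 0 of 8 for macrophages, 0 of 6 for differentiated keratinocytes, 1 and 2 of 6 (lower) for basal keratinocytes, and 2 of 6 for smooth muscle and pericytes (1 higher, 1 lower). Their part in the results below was not tested beyond a fit with the muscle list as a covariate. In such bulk tissue, fewer cells of a type and less RNA per cell cannot be told apart. The titles number TD wounds from 1 to 6 and patch wounds from 7 to 15, so whatever that order stands for and the patch itself cannot be told apart.

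**Figure D1:**
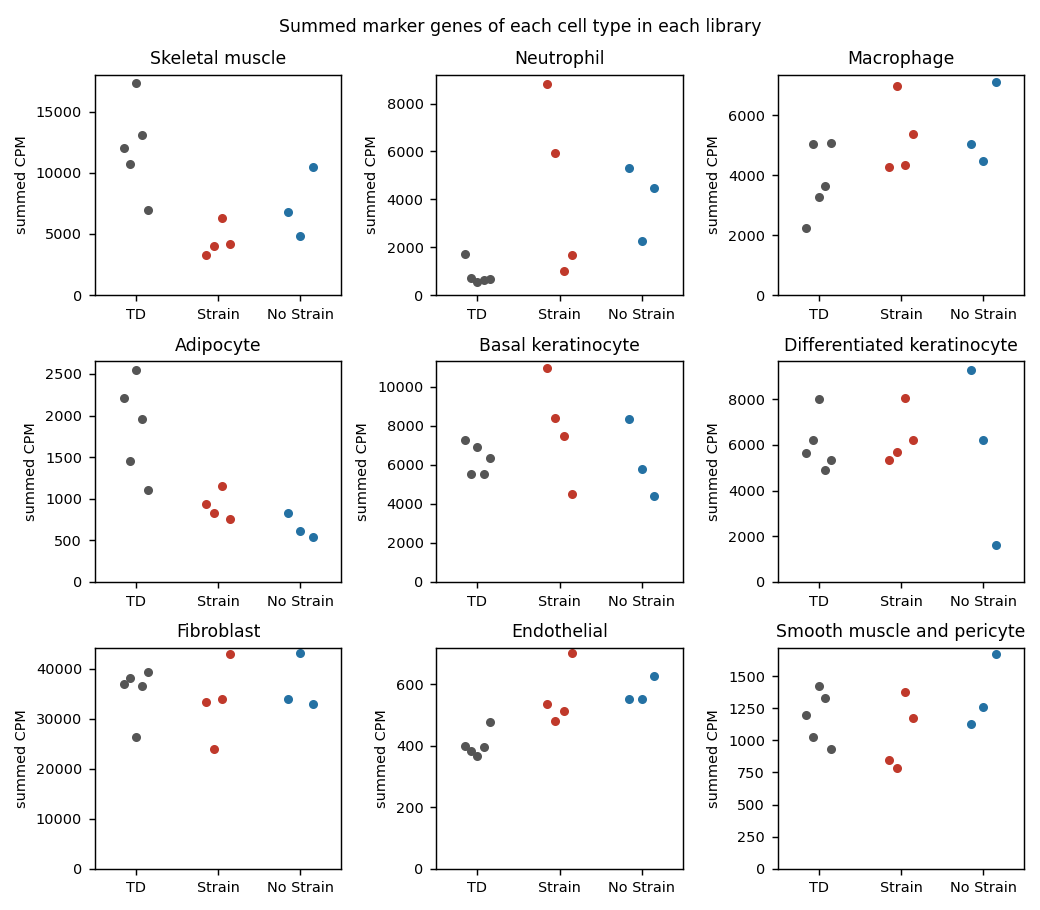
Summed CPM of the marker genes of 9 cell types (vertical axes, linear, from 0) in each library of the TD, Strain and No Strain groups (1 point per library). The 4 highest muscle and adipocyte sums are TD libraries, the 5 TD libraries lie lowest for endothelial markers, and fibroblast sums overlap among the 3 groups.

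Between Strain and TD, 11 of the 46 members changed, of which 3 were higher and 8 lower under the strain patch (23.9%; edgeR, adjusted p below 0.05). Over all 18618 genes tested, 12.6% passed, 6.20% higher and 6.41% lower. The median log2 fold change of the members was -0.08, against 0.02 over all genes. For 12 members the libraries of the 2 groups did not overlap, against 14.6% of all genes. Between No Strain and TD, 15 members changed, 7 higher and 8 lower (32.6%), where 17.8% of all genes passed, 9.35% higher and 8.40% lower. The median was -0.13 against 0.00, and 17 members did not overlap, against 26.7% of all genes. Scaled by library totals alone, No Strain against TD gave 4 higher and 8 lower members, and 38.1% of all calls were higher in place of 52.7%. These 2 comparisons share the 5 TD libraries.

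By role, ligands, latent binding proteins and antagonists gave 8 lower and 0 higher calls for Strain and 7 lower and 3 higher calls for No Strain among 20 genes. Receptors gave 2 higher calls for Strain, and 1 higher and 1 lower call for No Strain, among 11 genes. Over all genes tested, edgeR called 12.6% for Strain and 17.8% for No Strain. None of the 6 receptor-regulated and common SMADs passed in either comparison with edgeR, with 1 at an unadjusted p below 0.05 in each, and 0 passed with DESeq2. DESeq2 called 14 members for Strain (5 higher, 9 lower) and 19 for No Strain (10 higher, 9 lower), where it called 18.9% and 23.5% of all genes.

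Counts of members moved with single libraries, as did counts over all genes. Without Strain replicate 2, 5 members passed for Strain, and the share of all genes that passed fell from 12.6% to 4.75%. Without No Strain replicate 3, TD replicate 4 or TD replicate 3, 7, 8 and 9 members passed for No Strain, beside 7.88%, 12.7% and 12.7% of all genes in place of 17.8%. Without both TD replicate 1, which had the highest neutrophil sum of its group, and TD replicate 3, which had the highest muscle sum, the counts were 2 for Strain and 7 for No Strain, beside 2.23% and 7.5% of all genes. With the mean of the muscle list as a covariate they were 0 and 7, where 1 gene of all 18618 passed for Strain and 1092 (5.87%) for No Strain. In that fit the Strain log2 fold changes of Chrdl1, Bmp7, Bmp2 and Id2 were -1.89, -1.14, -0.81 and 0.78 (edgeR adjusted p = 0.159, 0.110, 0.548 and 0.478). Those of the other 7 members that had passed for Strain lay between -0.92 for Bmp4 and 0.41 for Bambi. Each of these 7 was smaller in size than without the covariate, as for Nog (-0.87 in place of -1.80) and Tgfb3 (-0.58 in place of -0.86). Chrdl1 and Bmp7 were larger in size than without it (-1.31 and -0.50), as was Id2, and Bmp2 was similar (-0.83). The muscle sums of TD and Strain do not overlap. With the letter of the title (L or R, meaning not given) as a covariate, 5 members passed for Strain, namely Bmp2, Ltbp4, Nog, Chrdl1 and Id2, and 10 for No Strain, beside 4.29% and 11.5% of all genes.

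**Figure D2:**
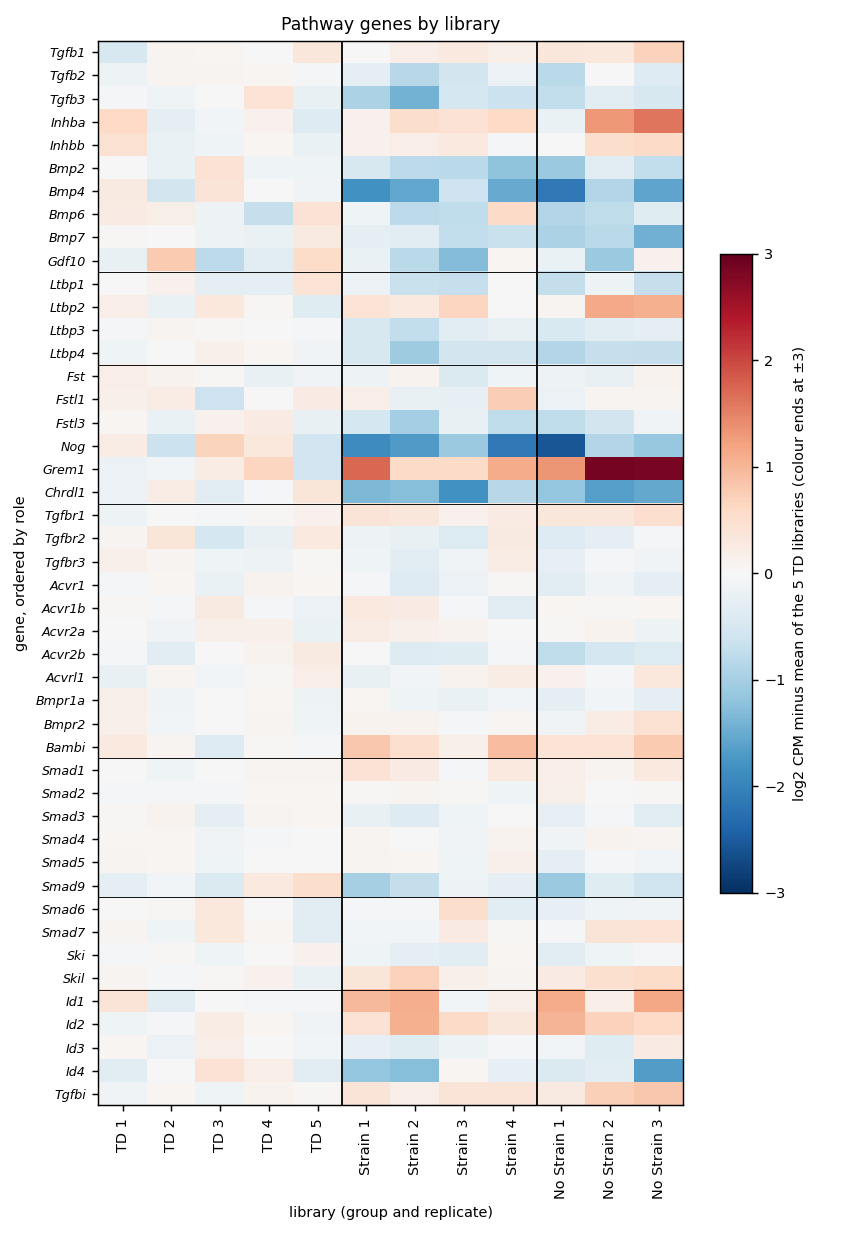
All 46 members (rows, grouped by role) in each of the 12 libraries (columns, grouped as TD, Strain and No Strain), coloured by log2 CPM minus the member's mean over the TD libraries. Lower values under both patches stand out for Nog, Bmp4 and Chrdl1, and higher values for Grem1 in No Strain replicates 2 and 3, while the SMADs other than Smad9 vary little. The colour scale ends at 3 log2 units in either direction.

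Of the 10 ligands, 4 fell between TD and Strain and 0 rose, and 3 fell and 1 rose between TD and No Strain. This was 40.0% in each comparison, against 12.6% and 17.8% of all genes. The median log2 fold changes were -0.47 and -0.48. Bmp4 (ENSMUSG00000021835, GRCm38 chr14:46383520-46390669, minus strand), a BMP ligand of dermal and follicle cells, showed the largest fold difference of the ligands. It was present at 8.10, 4.56, 8.77, 6.62 and 6.27 CPM in TD, at 1.84, 2.21, 4.36 and 2.30 CPM in Strain and at 1.44, 3.60 and 2.18 CPM in No Strain. Every TD library thus lay above every patch library. The level was 2.55-fold lower in Strain (log2 fold change -1.35, SE 0.316, edgeR adjusted p = 0.0216) and 2.84-fold lower in No Strain (-1.51, SE 0.354, adjusted p = 0.0162). The Strain call was lost without Strain replicate 1 or 2 and the No Strain call without No Strain replicate 1 or 3, where adjusted p ran from 0.0512 to 0.0717.

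Because the BMP ligand gene Bmp4 and the BMP antagonist gene Grem1 differed in opposite directions, the 250 bases before their annotated starts are shown (RefSeq, GRCm38.p6; 5′ to 3′ on the minus strand, chr14:46390670-46390919 and chr2:113758649-113758898). Capitals mark GGCGCC, a sequence to which BMP-activated SMADs are known to bind, and CAGAC or its complement GTCTG, the SMAD box. The motifs do not overlap each other.
Bmp4: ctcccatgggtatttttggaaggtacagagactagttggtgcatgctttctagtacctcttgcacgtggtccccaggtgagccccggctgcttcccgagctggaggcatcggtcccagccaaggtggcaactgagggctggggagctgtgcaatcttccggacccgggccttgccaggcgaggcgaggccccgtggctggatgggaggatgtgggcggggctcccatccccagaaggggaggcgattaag
Grem1: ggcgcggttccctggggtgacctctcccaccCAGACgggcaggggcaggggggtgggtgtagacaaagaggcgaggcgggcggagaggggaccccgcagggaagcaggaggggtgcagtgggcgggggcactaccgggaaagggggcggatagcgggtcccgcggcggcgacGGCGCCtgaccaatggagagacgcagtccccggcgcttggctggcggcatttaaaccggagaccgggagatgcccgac
The Bmp4 window held neither motif and the Grem1 window held 1 of each. GGCGCC occurred in 9 of the 32 members with a matched window (28.1%) and in 9.57% of 27025 windows of the same length. The shorter CAGAC, read on both strands, occurred in 13 members (40.6%) and in 42.2% of all windows. Member windows were also richer in G and C, with a median of 68% against 52%. A match is a description of these letters only.

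Bmp2, a second BMP ligand, was lower under both patches. It was measured at 10.3, 8.96, 14.1, 9.49 and 9.51 CPM in TD, at 7.30, 5.99, 5.80 and 4.41 CPM in Strain and at 4.73, 8.24 and 6.09 CPM in No Strain, with no overlap of TD and patch libraries. It fell 1.78-fold in Strain (log2 fold change -0.83, SE 0.198, edgeR adjusted p = 0.0228) and 1.65-fold in No Strain (-0.72, SE 0.217, adjusted p = 0.0410). The Strain call was lost without Strain replicate 2 (adjusted p = 0.0576). That for No Strain was lost without TD replicate 1, 3, 4 or 5 or No Strain replicate 1 or 3 (0.0523 to 0.148).

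Bmp7 (chr2:172868012-172940321), a BMP made in epithelia and in the kidney, was lower under both patches. The TD libraries held 40.9, 40.3, 36.0, 34.9 and 48.4 CPM, the Strain libraries 33.2, 31.9, 23.7 and 25.0 CPM and the No Strain libraries 20.6, 22.7 and 14.8 CPM. The groups formed 3 steps without overlap, TD highest and No Strain lowest. Relative to TD, Bmp7 was 2.07-fold lower in No Strain (-1.05, SE 0.167, adjusted p = 0.00374), a call kept when any single library was left out and with the muscle covariate (adjusted p = 0.00214). The 1.41-fold fall in Strain (-0.50, SE 0.149, adjusted p = 0.0494) held in 3 of 12 fits that each left out 1 library. It was lost without any 1 of the 5 TD libraries, Strain replicate 2, 3 or 4 or No Strain replicate 1 (0.0589 to 0.107).

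The 3 TGF-beta isoforms differed in their values. Tgfb3 (chr12:86056745-86079041) was measured at 52.3, 49.4, 54.0, 71.2 and 46.6 CPM in TD, at 28.1, 20.1, 37.5 and 34.6 CPM in Strain and at 32.5, 42.8 and 38.4 CPM in No Strain. All patch libraries were below all TD libraries. The 1.82-fold fall in Strain passed (-0.86, SE 0.181, edgeR adjusted p = 0.0147) in every fit that left out 1 library, whereas the No Strain difference did not (-0.53, SE 0.196, adjusted p = 0.0832), though it passed with DESeq2 (adjusted p = 0.0471). The difference between the 2 patches was itself -0.33 (SE 0.202, adjusted p = 0.887), so Tgfb3 was not shown to respond differently to them. Tgfb2 held 32.7, 38.3, 38.0, 37.8 and 34.5 CPM in TD, 29.8, 20.3, 24.7 and 32.1 CPM in Strain and 20.7, 36.7 and 27.6 CPM in No Strain. Strain libraries lay below the TD libraries, but neither difference passed (-0.44, SE 0.163, adjusted p = 0.0956, and -0.36, SE 0.177, adjusted p = 0.185).

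Tgfb1, the isoform known for its release from platelets and macrophages in wounds, was measured at 67.9, 100.2, 99.0, 93.2 and 119 CPM in TD, at 93.0, 109, 115 and 106 CPM in Strain and at 120.0, 117 and 152 CPM in No Strain. The ranges of TD and of both patches overlapped. Differences from TD were 0.14 (SE 0.140, adjusted p = 0.532) for Strain and 0.44 (SE 0.151, adjusted p = 0.0648; with DESeq2 0.0425) for No Strain. Per kilobase of annotated exons, the TD mean was 19.0 ± 3.62 CPM for Tgfb1, 16.2 ± 2.86 for Tgfb3 and 6.26 ± 0.434 for Tgfb2 (SD, n = 5). In Strain, the libraries ranged from 18.4 to 22.8 for Tgfb1, from 5.95 to 11.1 for Tgfb3 and from 3.51 to 5.54 for Tgfb2. Tgfb1 and Tgfb3 thus overlapped in level in TD, and Tgfb1 lay above Tgfb3 in every Strain library.

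Inhba encodes the subunit of activin A, a wound-induced ligand. It was measured at 66.2, 36.5, 41.7, 47.6 and 33.5 CPM in TD, at 47.4, 63.3, 58.9 and 65.9 CPM in Strain and at 38.2, 108 and 133 CPM in No Strain. No Strain replicate 1 lay inside the TD range and the other two lay above every other library. The mean was 2.07-fold higher in No Strain than in TD (1.05, SE 0.327, edgeR adjusted p = 0.0470), and the Strain difference did not pass (0.38, adjusted p = 0.435). The No Strain call held in 2 of 12 fits, those without TD replicate 1 or No Strain replicate 1 (adjusted p = 0.0344 and 0.00713). Without any other library adjusted p was 0.0529 to 0.222, and without No Strain replicate 3 the log2 fold change was 0.70. The remaining ligands, Inhbb, Bmp6 and Gdf10, did not pass, with log2 fold changes of 0.12, -0.22 and -0.59 for Strain and 0.36, -0.71 and -0.43 for No Strain. Bmp6 shares 224 exon bases with Txndc5 on the other strand, a gene with 86911 counts against 2531 for Bmp6, and the library kit does not mark strand, so Bmp6 values are uncertain.

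**Figure D3:**
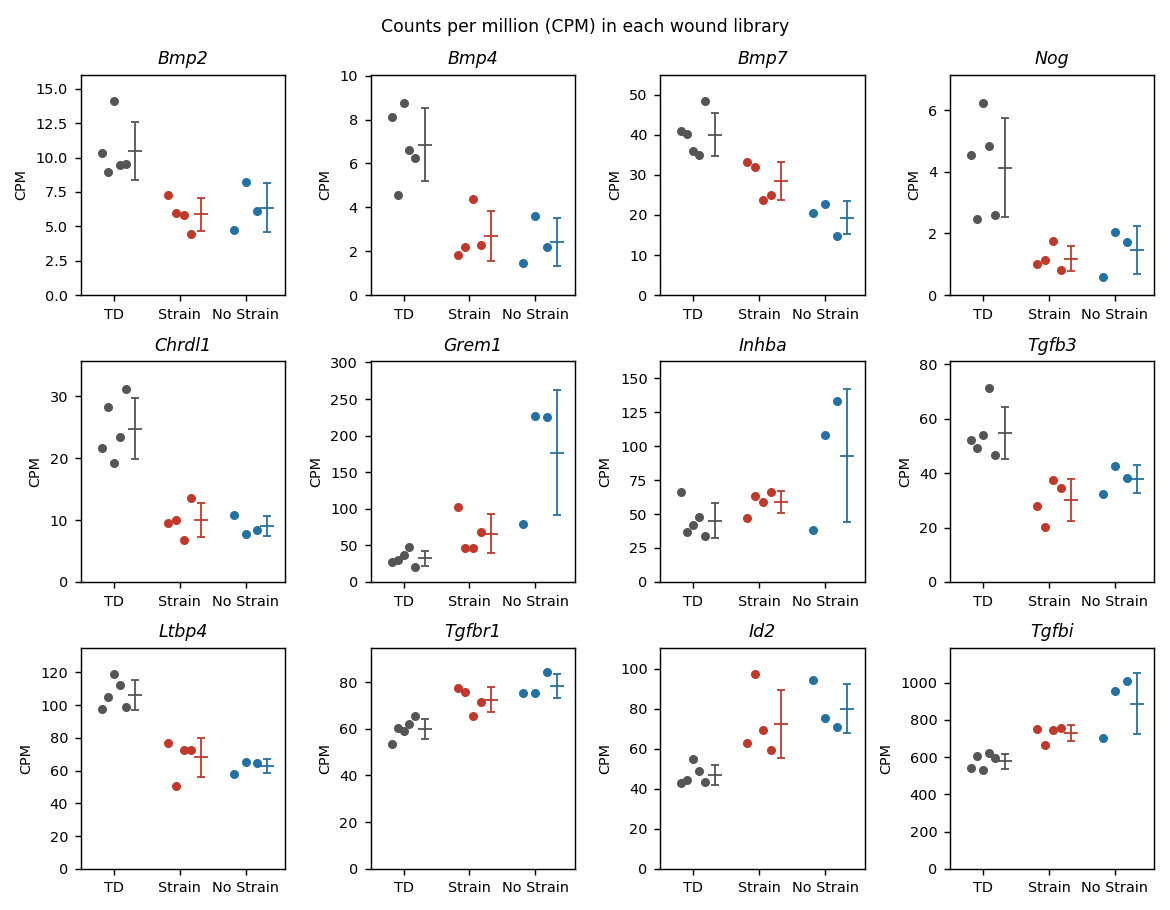
CPM of 12 members (vertical axes, linear, from 0) in each library of TD, Strain and No Strain (1 point per library; the bar beside them is the mean ± SD). Bmp4, Bmp2, Nog and Chrdl1 show all TD points above all patch points, and Grem1 shows No Strain points at 78.5, 227 and 225 above the TD range of 20.9 to 48.3.

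The latent TGF-beta binding proteins tether the latent ligand to the matrix, and 2 of the 4 fell under both patches. Of all genes, 12.6% (Strain) and 17.8% (No Strain) passed in either direction. Whether a list of only 4 genes differs from these shares was not tested. Ltbp4 (chr7:27305136-27337692), which also takes part in elastic fibre assembly, was measured at 97.3, 105, 119, 112 and 98.7 CPM in TD, at 76.8, 50.4, 72.4 and 72.8 CPM in Strain and at 58.1, 65.5 and 64.7 CPM in No Strain. TD lay above both patch groups without overlap. The falls were 1.56-fold (-0.64, SE 0.114, edgeR adjusted p = 0.00865) and 1.69-fold (-0.76, SE 0.126, adjusted p = 0.00399), and both calls were kept when any single library was left out. Ltbp3, which binds the latent form of TGF-beta, held 141, 154, 150.4, 145 and 142 CPM in TD, 105, 87.3, 117 and 124 CPM in Strain and 107, 115 and 120.2 CPM in No Strain. Again no patch library reached the TD range. Its log2 fold changes were -0.43 (SE 0.0906, adjusted p = 0.0140) and -0.36 (SE 0.0990, adjusted p = 0.0291). For No Strain the call was lost without TD replicate 2, 3 or 4 or any 1 of the No Strain libraries (0.0511 to 0.110).

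Ltbp2, which unlike the other members of its family does not bind latent TGF-beta, went the other way. It was measured at 40.8, 30.8, 44.2, 36.0 and 27.5 CPM in TD, at 47.1, 42.9, 54.7 and 35.0 CPM in Strain and at 37.3, 77.9 and 74.1 CPM in No Strain. No Strain replicate 1 lay within the TD range and the other two lay above all other libraries. It was 1.76-fold higher in No Strain (0.81, SE 0.233, edgeR adjusted p = 0.0347) and did not pass in Strain (0.33, adjusted p = 0.350). The No Strain call was lost without TD replicate 2, 4 or 5 or No Strain replicate 2 or 3 (0.0636 to 0.132). Ltbp1 did not pass, at -0.37 (adjusted p = 0.232) and -0.51 (adjusted p = 0.118).

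Among the 6 extracellular antagonists and binding proteins, 2 fell in Strain, and 2 fell and 1 rose in No Strain. Of all genes, 12.6% (Strain) and 17.8% (No Strain) passed in either direction. Whether a list of only 6 genes differs from these shares was not tested. Grem1 (ENSMUSG00000074934, chr2:113746164-113758646, minus strand), whose product gremlin 1 binds and blocks BMP2 and BMP4, showed the largest rise of any member. The TD libraries held 27.5, 29.5, 36.2, 48.3 and 20.9 CPM and the Strain libraries 103, 46.1, 46.5 and 68.1 CPM. The No Strain libraries held 78.5, 227 and 225 CPM, all above TD. The No Strain mean of 177 ± 85.2 CPM (SD, n = 3) against 32.4 ± 10.4 (SD, n = 5) was 5.45-fold higher (2.45, SE 0.378, edgeR adjusted p = 0.00348). This call was kept when any single library was left out, with log2 fold changes from 2.22 to 2.80, and with the muscle covariate (adjusted p = 0.0285). Strain, at 66.0 ± 26.9 CPM (SD, n = 4), was 2.03-fold above TD but did not pass (1.02, SE 0.353, adjusted p = 0.0802), with 2 of 4 libraries inside the TD range. Strain passed with DESeq2 (adjusted p = 0.0279) and, with edgeR, without No Strain replicate 1 (1.01, adjusted p = 0.0417), and did not without Strain replicate 1 (0.72, adjusted p = 0.214).

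Chrdl1 (chrX:143285674-143394262) encodes chordin-like 1, another secreted BMP antagonist, and it was lower under both patches. It was measured at 21.7, 28.3, 19.3, 23.5 and 31.2 CPM in TD, at 9.54, 9.95, 6.85 and 13.6 CPM in Strain and at 10.8, 7.77 and 8.36 CPM in No Strain. Patch and TD libraries did not overlap. The falls were 2.49-fold (-1.31, SE 0.203, edgeR adjusted p = 0.00551) and 2.76-fold (-1.46, SE 0.227, adjusted p = 0.00344), and both calls were kept when any single library was left out.

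Nog (chr11:89300638-89302332) encodes noggin, an antagonist of BMP2, BMP4 and BMP7 known from hair follicles. The TD libraries held 4.53, 2.46, 6.22, 4.85 and 2.59 CPM, the Strain libraries 0.994, 1.13, 1.75 and 0.815 CPM and the No Strain libraries 0.585, 2.06 and 1.72 CPM. Its levels were low, and all TD libraries were above all patch libraries. It was 3.49-fold lower in Strain (-1.80, SE 0.397, edgeR adjusted p = 0.0170) and 2.83-fold lower in No Strain (-1.50, SE 0.431, adjusted p = 0.0347). The Strain call was lost without Strain replicate 2 (0.0541), and the No Strain call without TD replicate 1, 3 or 4 or No Strain replicate 1 or 3 (0.0598 to 0.104). Fst, encoding the activin-binding protein follistatin, was -0.14 (adjusted p = 0.449) and -0.10 (adjusted p = 0.625). Fstl1 was at 0.15 and -0.02, and Fstl3 at -0.62 (edgeR adjusted p = 0.0528) and -0.47 (adjusted p = 0.141). With DESeq2, the Fstl3 difference for Strain passed. Fstl3 shares 47.3% of its exon length with Prss57 on the other strand, which itself had 41 counts.

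**Figure D4:**
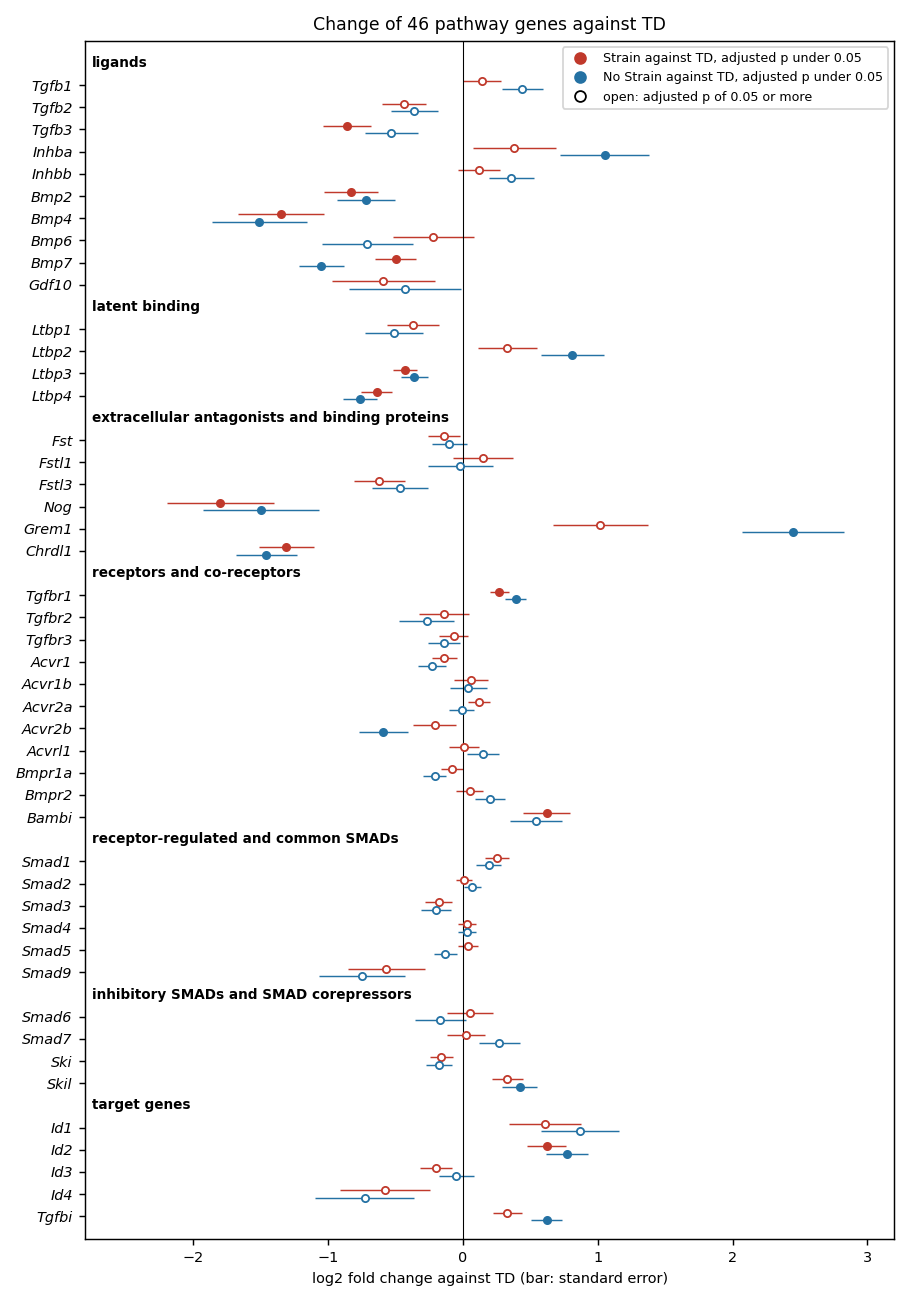
Log2 fold change (horizontal axis) of each of the 46 members in each patch group relative to TD, with bars of 1 standard error; filled points have an edgeR adjusted p below 0.05. Chrdl1, Nog and Bmp4 lie farthest to the left, and Grem1 lies farthest to the right at 2.45 for No Strain.

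Of 11 receptors and co-receptors, 2 rose in Strain, and 1 rose and 1 fell in No Strain. This was 18.2% in each comparison, near the 12.6% and 17.8% of all genes that passed. Tgfbr1 (chr4:47353222-47414931), the type I kinase of the TGF-beta receptor, was measured at 53.4, 60.5, 59.0, 61.9 and 65.3 CPM in TD, at 77.4, 75.7, 65.5 and 71.7 CPM in Strain and at 75.5, 75.4 and 84.4 CPM in No Strain. The highest TD and the lowest Strain library were almost equal, yet no libraries crossed. The increase was 1.21-fold in Strain (0.27, SE 0.0707, edgeR adjusted p = 0.0297) and 1.31-fold in No Strain (0.39, SE 0.0764, adjusted p = 0.00793). In No Strain it was kept when any single library was left out. The Strain call was lost without TD replicate 1, 2, 3 or 4 or Strain replicate 1, 2 or 4 (0.0502 to 0.0944).

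Bambi encodes a decoy receptor that lacks the kinase domain. It was measured at 7.53, 6.49, 4.66, 6.22 and 5.87 CPM in TD, at 10.8, 8.69, 6.81 and 11.6 CPM in Strain and at 8.15, 8.07 and 10.6 CPM in No Strain. Of the patch libraries, only Strain replicate 3 lay inside the TD range. The rise of 1.54-fold in Strain passed (0.62, SE 0.177, edgeR adjusted p = 0.0416) and that in No Strain did not (0.54, adjusted p = 0.0730; with DESeq2 0.0410). The Strain call held in 3 of 12 fits, and was lost without TD replicate 2, 3, 4 or 5, Strain replicate 1, 2 or 4 or No Strain replicate 1 or 2 (0.0545 to 0.0982). Acvr2b, a type II receptor for activins, held 2.43, 1.97, 2.51, 2.71 and 3.03 CPM in TD, 2.53, 1.89, 1.95 and 2.40 CPM in Strain and 1.44, 1.72 and 1.86 CPM in No Strain. It was 1.51-fold lower in No Strain, below all TD libraries (-0.59, SE 0.181, adjusted p = 0.0425), and at -0.21 in Strain (adjusted p = 0.422). The No Strain call was lost without TD replicate 1, 3, 4 or 5 or any 1 of the No Strain libraries (0.0620 to 0.146).

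The other 8 receptors did not pass in either comparison. The type II TGF-beta receptor Tgfbr2 was at -0.14 and -0.27, the co-receptor Tgfbr3 (betaglycan) at -0.07 and -0.14, and the type II BMP receptor Bmpr2 at 0.05 and 0.20. The type I receptors Acvr1, Acvr1b, Acvrl1 and Bmpr1a and the type II receptor Acvr2a lay between -0.14 and 0.12 for Strain and between -0.23 and 0.15 for No Strain. Acvr2a shares 7.84% of its exon length with Orc4 on the other strand.

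None of the 6 receptor-regulated and common SMADs passed against TD, where 12.6% (Strain) and 17.8% (No Strain) of all genes passed. A list of 6 genes is too short to tell 0 calls from these shares. Smad2 and Smad3, the TGF-beta and activin effectors, were at 0.01 (SE 0.0592) and -0.18 (SE 0.0993) for Strain and at 0.07 (SE 0.0643) and -0.20 (SE 0.108) for No Strain. The common partner Smad4 was at 0.03 in both (SE 0.0633 and 0.0689), with group means of 73.9 ± 3.63 CPM in TD (SD, n = 5), 75.3 ± 4.76 in Strain (SD, n = 4) and 75.4 ± 5.64 in No Strain (SD, n = 3). Of the BMP effectors, Smad1 was at 0.25 (adjusted p = 0.0879) and 0.19 (adjusted p = 0.185), Smad5 at 0.04 and -0.13, and Smad9 at -0.57 and -0.75. Smad9 was scarce, at 1.21 ± 0.363 CPM in TD (SD, n = 5).

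Of the 4 inhibitory SMADs and corepressors, 0 passed for Strain, with either edgeR (1 at an unadjusted p below 0.05) or DESeq2, and 1 rose for No Strain. With edgeR, 12.6% and 17.8% of all genes passed, and 4 genes are too few to differ visibly from these shares. Skil, which encodes the SMAD corepressor SnoN, was measured at 53.1, 49.0, 51.4, 54.4 and 43.4 CPM in TD, at 64.4, 80.1, 55.6 and 53.5 CPM in Strain and at 59.5, 69.4 and 72.8 CPM in No Strain. No Strain lay above TD without overlap, and 1 Strain library lay inside the TD range. It was 1.34-fold higher in No Strain (0.42, SE 0.127, edgeR adjusted p = 0.0416), and Strain did not pass (0.33, SE 0.118, adjusted p = 0.0824). The No Strain call held in 3 of 12 fits and was lost without any 1 of the TD or No Strain libraries or Strain replicate 1 (0.0510 to 0.150). The inhibitory Smad6 and Smad7, feedback blockers of the receptors, were at 0.05 and 0.02 for Strain and at -0.17 and 0.27 for No Strain. The corepressor Ski was at -0.16 and -0.18.

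Of the 5 target genes, 1 rose in Strain, 2 rose in No Strain and 0 fell. With edgeR, 12.6% (Strain) and 17.8% (No Strain) of all genes passed, and 5 genes are too few to tell these counts from those shares. Tgfbi (chr13:56609523-56639562), a matrix protein named for its induction by TGF-beta, was measured at 542, 604, 529, 621 and 597 CPM in TD, at 750.3, 664, 747 and 754 CPM in Strain and at 702, 954 and 1008 CPM in No Strain. Both patch groups lay above TD without overlap. The rise of 1.53-fold in No Strain (0.62, SE 0.113, edgeR adjusted p = 0.00594) was kept when any single library was left out. The 0.33 in Strain did not pass with edgeR (SE 0.105, adjusted p = 0.0586) and passed with DESeq2 (adjusted p = 0.0211). Macrophages also make Tgfbi, and summed macrophage markers ran from 2253 to 5063 CPM in TD, 4261 to 6977 in Strain and 4467 to 7118 in No Strain. The part of these cells in the result was not tested.

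Id2 (chr12:25093799-25097140), an inhibitor of differentiation that BMP signals induce, was measured at 42.8, 44.6, 54.7, 49.1 and 43.6 CPM in TD, at 63.1, 97.5, 69.4 and 59.6 CPM in Strain and at 94.2, 75.5 and 70.7 CPM in No Strain. Every patch library exceeded every TD library. It was 1.54-fold higher in Strain (0.62, SE 0.145, edgeR adjusted p = 0.0207) and 1.71-fold higher in No Strain (0.77, SE 0.155, adjusted p = 0.00888), and both calls were kept when any single library was left out. The related Id1 was at 0.61 (edgeR adjusted p = 0.157) and 0.87 (adjusted p = 0.0575), with libraries that overlapped TD. With DESeq2, the Id1 difference for No Strain passed. Id3 was at -0.20 and -0.05, and Id4 at -0.58 and -0.73, none of which passed.

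With the 7 patch libraries set together against TD, 16 members passed, 7 higher and 9 lower (34.8%, where 24.4% of all genes passed). To the genes named above this added Id1, higher (edgeR adjusted p = 0.0447), and Fstl3, lower (adjusted p = 0.0327). Inhba (adjusted p = 0.0776), Ltbp2 (0.0520) and Acvr2b (0.0581), which had passed for No Strain, did not pass. This comparison uses the same TD libraries again. Without TD replicates 1 and 3 the count was 10, and with the muscle covariate it was 3, where 10.7% and 0.661% of all genes passed.

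Between Strain and No Strain, 0 of 46 members passed with edgeR, where 0% of all genes passed, and 0 with DESeq2, which called 33 of all genes, 10 of them higher in Strain. At an unadjusted p below 0.05 there were 3 members, Grem1, Bmp7 and Tgfbi, against 5.61% of all genes. Grem1 was 2.68-fold lower in Strain (-1.42, SE 0.398, unadjusted p = 0.00413, adjusted p = 0.872), with Strain replicate 1 at 103 CPM above No Strain replicate 1 at 78.5 CPM. Over fits that left out 1 library the Grem1 difference ran from -1.79 to -1.21. Bmp7 was higher in Strain (0.55, SE 0.171, unadjusted p = 0.00744, adjusted p = 0.872), with all 4 Strain libraries above all 3 No Strain libraries. Tgfbi was at -0.28 (SE 0.120, adjusted p = 0.872). Libraries did not overlap for 3 members, Tgfb1, Bmp7 and Acvr2b, against 5.62% of all genes. The standard errors of all 46 members ran from 0.0674 for Smad2 to 0.458 for Nog. Even differences well above their standard error, as for Grem1 (-1.42, SE 0.398) and Bmp7 (0.55, SE 0.171), did not pass with 4 and 3 libraries. The absence of calls thus does not show that members were equal under the 2 patches.

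The wider pathway was read from 56 further genes, of which 52 could be tested; Nodal, Amh, Sost and Chrdl2 could not. Between Strain and TD 0 rose and 6 fell (11.5%, against 12.6% of all genes), with a median log2 fold change of -0.06. Between No Strain and TD 5 rose and 6 fell (21.2%, against 17.8%), with a median of -0.01. None passed between Strain and No Strain with edgeR, where 8 had an unadjusted p below 0.05. Without Strain replicate 2 the Strain count was 3, and without No Strain replicate 3 the No Strain count was 7, beside the 4.75% and 7.88% of all genes given above for these fits. Of 10 genes known to respond to TGF-beta, which include matrix genes, 1 passed in each comparison (10.0%, against 12.6% and 17.8% of all genes). It was the cell cycle inhibitor gene Cdkn2b, lower at -0.52 (edgeR adjusted p = 0.0442) and -0.58 (adjusted p = 0.0334). Another of the 10, Tagln, had 414 counts in all. It shares 62.4% of its exon length with Gm48529 (488 counts) on the other strand, so Tagln values are uncertain.

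Rgmb encodes a BMP co-receptor. It was measured at 63.0, 56.5, 67.6, 60.8 and 57.1 CPM in TD, at 30.9, 33.8, 45.3 and 42.1 CPM in Strain and at 27.9, 38.2 and 26.9 CPM in No Strain, without overlap of TD and patch. It fell 1.60-fold (-0.68, SE 0.132, edgeR adjusted p = 0.0114) and 1.97-fold (-0.98, SE 0.147, adjusted p = 0.00305). Acvr1c, a type I receptor that adipocytes express strongly, held 4.12 to 11.5 CPM in TD, 2.25 to 4.07 CPM in Strain and 0.558 to 1.63 CPM in No Strain. It fell in both (-1.37, SE 0.342, adjusted p = 0.0274, and -2.95, SE 0.428, adjusted p = 0.00272), beside the falls of 6 and 8 of 8 adipocyte markers given above. Mstn, the muscle growth inhibitor myostatin, held 9.33 to 27.3 CPM in TD, 1.05 to 4.95 CPM in Strain and 0.511 to 1.80 CPM in No Strain (-2.62, edgeR adjusted p = 0.0123, and -3.82, adjusted p = 0.00442). Of the 12 muscle markers, 8 were lower in Strain (median log2 fold change -1.40) and 2 in No Strain (-0.75). Strain and No Strain libraries overlapped for Mstn and for the summed muscle markers, and 0 of 12 muscle markers passed between these groups. The relation of Mstn to the muscle markers was not tested. Bmp8a was counted 12 to 48 times per TD library, 4 to 7 times per Strain library and 0 to 2 times per No Strain library, and passed as lower in both (adjusted p = 0.0166 and 0.00305). No fold is given at these counts, and reads of Bmp8a and its close copy Bmp8b may not be separable.

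Genes of the wider pathway that rose in No Strain included Furin, the protease that cleaves pro-TGF-beta. It held 173 to 194 CPM in TD, 195 to 236 CPM in Strain and 230.1 to 277 CPM in No Strain, where it was 1.34-fold higher (0.43, SE 0.0802, edgeR adjusted p = 0.00635). Tgif1, a SMAD corepressor, held 32.4 to 38.6 CPM in TD and 43.1 to 55.4 CPM in No Strain (0.52, SE 0.110, adjusted p = 0.0103). Gdf15, a stress-induced ligand, held 0.905 to 2.26 CPM in TD and 2.53 to 6.18 CPM in No Strain (1.48, SE 0.372, adjusted p = 0.0209). In Strain these genes were at 0.19, 0.30 and 0.95, and none passed.

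Per kilobase of annotated exons, the members spanned a wide range of level in TD. Fstl1 was highest at 441 ± 93.5 CPM per kilobase, followed by Tgfbi at 153 ± 10.8 and Tgfbr2 at 85.6 ± 20.8 (SD, n = 5). The libraries of these 3 genes did not overlap. Ski at 34.2 ± 2.22 and Tgfbr3 at 27.7 ± 2.46 came next, followed by Id3 at 21.9 ± 2.14 and Smad4 at 19.9 ± 0.978, which overlapped. Smad9 at 0.226 ± 0.0677 and Acvr2b at 0.644 ± 0.0984 were lowest. Grem1 moved from 7.82 ± 2.50 in TD (SD, n = 5) to 15.9 ± 6.48 in Strain (SD, n = 4) and 42.6 ± 20.5 in No Strain (SD, n = 3). In No Strain, Nog was at 0.858 ± 0.455 and Chrdl1 at 1.33 ± 0.242, below Grem1 in every library of that group. In TD, Chrdl1 was at 3.67 ± 0.721 and Nog at 2.44 ± 0.941, so that Grem1 had the highest mean of these 3 BMP antagonists in every group.

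**Figure D5:**
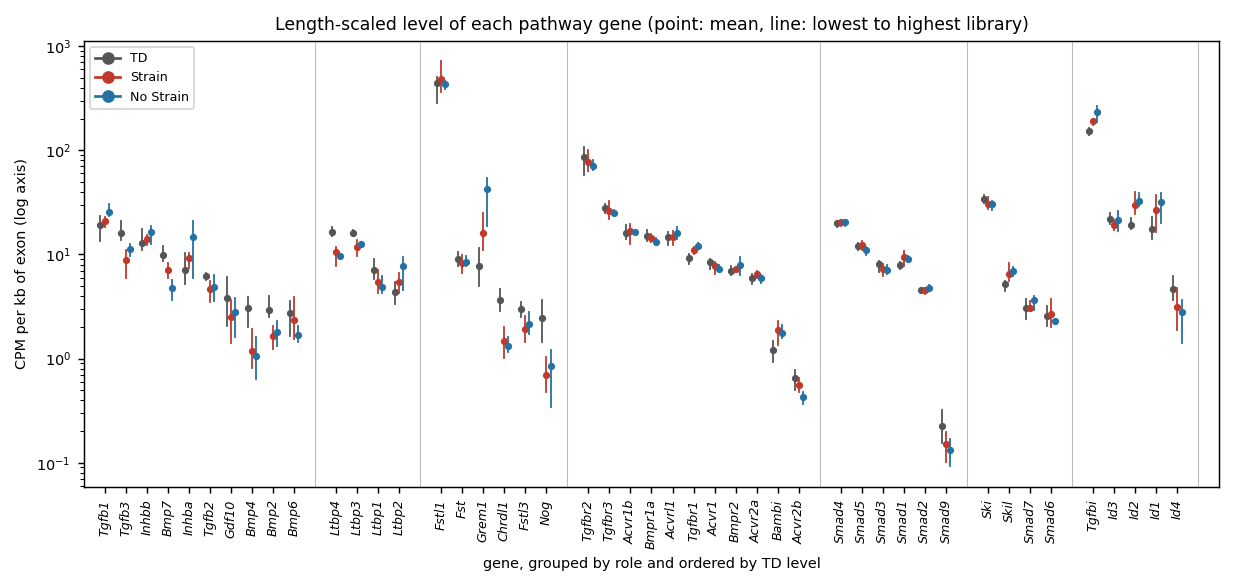
Mean CPM per kilobase of annotated exons (vertical axis, log scale) of each member (horizontal axis, by role) in TD, Strain and No Strain, with points for group means and lines from the lowest to the highest library. Grem1 moves from 7.82 in TD to 42.6 in No Strain.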

How the data were processed

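Polyadenylated RNA of 12 wounds was sequenced with a library kit that does not mark strand, per the labels' protocols. The deposited files hold raw counts per Ensembl gene, per the file headers. The submitters' processing notes name bcl2fastq 2.17, FastQC, cutadapt, STAR, featureCounts, DESeq2 and the build GRCm38; their settings and the annotation release are not given in the sources used here. Of 54232 identifiers, 54079 matched a GENCODE M21 symbol, and that annotation gave coordinates, exon lengths and overlaps.

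Genes were kept by filterByExpr (minimum count 10, minimum total count 15; 18618 genes) and fitted with edgeR 4.0.16 in R 4.3.3: TMM scaling, all 12 libraries in 1 robust quasi-likelihood fit without covariates, Benjamini-Hochberg adjustment over all genes, threshold 0.05. The standard error is the log2 fold change divided by the root of its F statistic. Alternatives were DESeq2 1.42.0, DESeq2 size factors, library totals alone, no filter, only the groups compared, a covariate (title letter, or mean of the muscle list), and leaving out each library. Leaving out TD replicates 1 and 3 together was added after the data were seen.

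The members and lists were chosen with earlier results of these data known. Values in every library are printed for members that passed any pairwise comparison (the 16 with the smallest p), the 2 with the smallest p for Strain against No Strain, and Tgfb1, Tgfb2, Tgfb3, Inhba, Bmp2 and Bmp4. Of the wider pathway, the genes with the smallest p are named in each comparison, at most 3 per direction; Cdkn2b was named after its values were seen. Replicates are numbered in accession order. Within groups, 19 library pairs differed beyond sampling noise (chi-square per degree of freedom 9.53 to 75.0). A floor of 3 counts is 0.147 CPM of the smallest library total before scaling and covers counting error only. On simulated data (18618 genes, 200 changed), changes of 1 and 2 log2 units were recovered for 65% and 86% of genes in Strain against TD. Recovery was 59% and 83% in No Strain against TD, and 58% and 91% in Strain against No Strain. Of the genes called, 4.43%, 5.33% and 5.7% were false calls. The 200 changed genes were fewer than passed in the data against TD and more than passed between the patches, so recovery in the data can differ.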

Additional observations from a re-analysis of the deposited data

Results flagged for a closer look

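Of 92 values of a member in a group of 4 or 5 libraries, 4 had a lowest or highest library far from the rest of its group by Dixon's criterion at the 95% level, where chance gives about 4.60. Ltbp4 was lowest in Strain replicate 2, at a log2 CPM of 5.66 against 6.18 in the next library. Tgfbi was also lowest in Strain replicate 2, at 9.38 against 9.55. In TD replicate 3, Fstl1 was lowest at 10.44 against 11.05, and Smad3 was lowest at 5.22 against 5.53. TD replicate 3 also had the highest summed skeletal muscle markers of all 12 libraries, at 17350.0 CPM, and their part in these values was not tested. Groups of 3 libraries were not examined in this way.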

How the results depend on the processing

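No log2 fold change of a member that passed for Strain or No Strain against TD changed sign under any alternative run. DESeq2 size factors, DESeq2, library totals alone, no filter on low counts and fits on only the groups compared kept the total of members passing in each comparison within 1.5 times its reported value. Counts by direction moved more: for No Strain, library totals alone gave 4 higher and 8 lower, and DESeq2 10 higher and 9 lower, in place of 7 and 8, and for Strain DESeq2 gave 5 higher in place of 3. With the title letter as a covariate, 5 members and 1 gene of the wider pathway passed for Strain against TD. With the muscle list as a covariate, 0 members, 0 wider pathway genes and 1 of all 18618 genes passed for Strain. On the log2 scale, Chrdl1 was then at -1.89 and Id2 at 0.78, while Nog, Bmp4 and Tgfb3 shrank to -0.87, -0.92 and -0.58. In that fit 7 members passed for No Strain and 3 for both patches. Those for No Strain included Bmp7, Chrdl1, Grem1, Ltbp4, Id2 and Tgfbi (edgeR adjusted p = 0.00214 to 0.0410). Without TD replicates 1 and 3 together, 2 members and 0 wider pathway genes passed for Strain, 7 and 7 for No Strain, and 10 members for both patches. When each library was left out in turn, 5 to 12 members passed for Strain, 7 to 16 for No Strain, 13 to 19 for both patches and 0 for Strain against No Strain, and 3 to 7 and 7 to 11 wider pathway genes passed against TD. In the same fits, 4.75% to 13.3% of all genes passed for Strain, 7.88% to 18.4% for No Strain and 17.2% to 24.7% for both patches. The cause was not tested. No paired analysis was possible because the labels give the groups no shared replicate numbers. No member had 3 or fewer counts in any library; of the wider pathway genes tested, Bmp8a and Gdf5 did.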

Other observations

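Some members varied within a group more than between groups. Id1, a target of BMP signals, was at 39.5 and 42.9 CPM in Strain replicates 1 and 2 and at 19.0 and 22.6 CPM in replicates 3 and 4. Id4 was at 7.85 and 7.25 CPM in the former and at 18.3 and 14.8 CPM in the latter. Summed neutrophil markers in these 4 libraries were 8799, 5954, 1001 and 1675 CPM, and their titles are numbered 7, 10, 14 and 15. In No Strain, Id1 was at 43.8, 23.1 and 44.7 CPM and Id4 at 13.1, 14.0 and 5.48 CPM, beside neutrophil sums of 5309, 2265 and 4491 CPM. Within No Strain, replicate 1 had the highest neutrophil sum and replicate 3 the lowest Id4 value. The part of these markers in the Id1 and Id4 values was not tested.

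No Strain replicate 1 stood below replicates 2 and 3 for several genes that rose in that group. Besides Grem1, Inhba and Ltbp2, this held for Thbs1, whose product thrombospondin 1 can activate latent TGF-beta, at 328, 834 and 640.5 CPM against 225 to 381 CPM in TD (log2 fold change 0.94, edgeR adjusted p = 0.0437). Eng, an endothelial co-receptor of TGF-beta, also rose in No Strain but did not show this order of replicates. It was at 138, 125 and 169 CPM against 92.9 to 114 CPM in TD (0.46, edgeR adjusted p = 0.0217), beside the higher endothelial markers.

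Bmp3, a ligand known for opposing other BMPs, was at 19.7 to 54.1 CPM in TD, 7.44 to 30.9 CPM in Strain and 6.22 to 8.50 CPM in No Strain. It fell 5.31-fold in No Strain (-2.41, SE 0.495, edgeR adjusted p = 0.00976), and the Strain difference did not pass (-1.27, SE 0.417, adjusted p = 0.0659). The difference between the patches was 1.13 (SE 0.489, adjusted p = 0.872). Thbs1, Eng and Bmp3 were chosen after their values were seen.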
